A study of Mus musculus with 10 samples.

Results

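The Slc16 genes encode transporters of small organic acids, the monocarboxylate transporters, and 9 of them were followed through the liver RNA-seq tables of a reciprocal mouse cross: Slc16a1, Slc16a5, Slc16a6, Slc16a7, Slc16a9, Slc16a10, Slc16a11, Slc16a12 and Slc16a13. The members were a list of gene symbols, matched to the Ensembl identifiers of the tables, and all 9 were found among the 41388 genes. The list was drawn up with results of these data known, and Slc16a3, Slc16a4, Slc16a8 and Slc16a14 of the same family were kept for comparison.

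The livers were those of 10 mice aged 10 weeks. The study asked how the direction of a cross affects the offspring, and 6 of the mice were F1 males, 3 from BFMI dams mated to B6N sires (matBFMI) and 3 from the opposite mating (patBFMI). Both inbred strains behind the cross gave 1 female and 1 male: BFMI860-12/Hber (BFMI), a Berlin Fat Mouse line with a recessive locus for juvenile obesity, and the lean C57BL/6NCrl (B6N). The F1 males received a high fat diet between day 21 and day 70. The sources differ on the inbred mice, for which a high fat diet is named in the article and a standard breeding diet in the labels. By the methods of the article, each F1 male of a group had a different dam.

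Members of this family move their substrates across membranes, and the best known of them carry lactate, pyruvate and ketone bodies together with a proton. In the liver such carriers take up lactate and pyruvate for glucose synthesis and release ketone bodies during fasting, while other members carry aromatic amino acids, creatine, carnitine or thyroid hormones. Several of the proton-coupled members need the glycoprotein basigin or embigin to reach the cell surface.

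Each library held between 51596405 and 56457087 assigned reads in matBFMI, between 51080161 and 58955349 in patBFMI and between 46988713 and 96023811 in the inbred strains. The library patBFMI 1 stood apart from the other 5 F1 libraries, with 32421 genes that had a count, against 22095 to 26694. Lane 6 carried the matBFMI libraries and lane 5 the patBFMI libraries, so that an effect of the lane and one of the cross cannot be told apart. The BFMI male was on lane 1 and the other inbred libraries were on lane 4. In the comparisons of strain and sex, an effect of lane 1 therefore cannot be told apart from the BFMI male. Hepatocyte markers (10 genes, such as Alb and Apoa1) summed to between 83743 and 108650 CPM (read counts scaled to library size, after TMM scaling) in every library. Markers of other sources moved with a group. The 11 Kupffer cell and macrophage markers summed to 222 to 256 CPM in matBFMI, against 281 to 296 CPM in patBFMI, and to 265 to 337 CPM in BFMI, against 444 to 468 CPM in B6N. The 5 skeletal muscle markers summed to 2.02 to 22.5 CPM in matBFMI, against 0.590 to 1.40 CPM in patBFMI. The 5 pancreas markers summed to 28.5 to 101 CPM in females, against 16.4 to 26.9 CPM in males of the inbred strains. Of these, Cela1 had 24.3 to 28.1 CPM in the females and 13.7 to 16.2 CPM in the males. Prss2, Cpa1, Pnlip and Amy2a5 had no more than 0.233 CPM in any library outside B6N. Adipocyte markers were near 0, at no more than 1.06 CPM in sum in any library. Fewer cells of a type and less RNA per cell cannot be told apart in such bulk samples.

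The 9 members spanned a wide range of levels in liver. On the deposited RPKM scale, which divides by transcript length and so allows genes to be compared, the mean level over the 10 libraries was 18.8 for Slc16a1, 18.2 for Slc16a10, 16.4 for Slc16a12 and 9.50 for Slc16a7. A second tier held Slc16a11 at 3.32 RPKM and Slc16a5 at 2.54 RPKM, and the lowest were Slc16a13 at 1.00 RPKM, Slc16a6 at 0.818 RPKM and Slc16a9 at 0.701 RPKM. The 4 most abundant members made up 85.7% to 92.2% of the summed RPKM of the family in every library. Slc16a1, Slc16a10 and Slc16a12 overlapped in level, since each of Slc16a1, Slc16a10 and Slc16a12 was the highest member in at least 1 library. Slc16a7 was the fourth in 9 libraries and the third in the BFMI male. Its RPKM and its place in the order depend on the length used. The 6 annotated transcripts of the gene cover 11839 exonic bases. The same reads give only 3.06 CPM per kilobase of that length, against 3.08 for Slc16a11. On this scale Slc16a10, at 13.2, also lay below Slc16a12, at 15.7. The RPKM of the second tier and of the 3 lowest members is uncertain, because the quantile normalisation applied to it moves low values. Slc16a13 had 69 counts and 1.28 RPKM in patBFMI 1, against 65 counts and 0.343 RPKM in patBFMI 2. Slc16a5 had 150 counts and 1.44 RPKM in patBFMI 1, against 276 counts and 1.13 RPKM in patBFMI 2. Differences between groups are therefore given on the CPM scale.

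**Figure D1:**
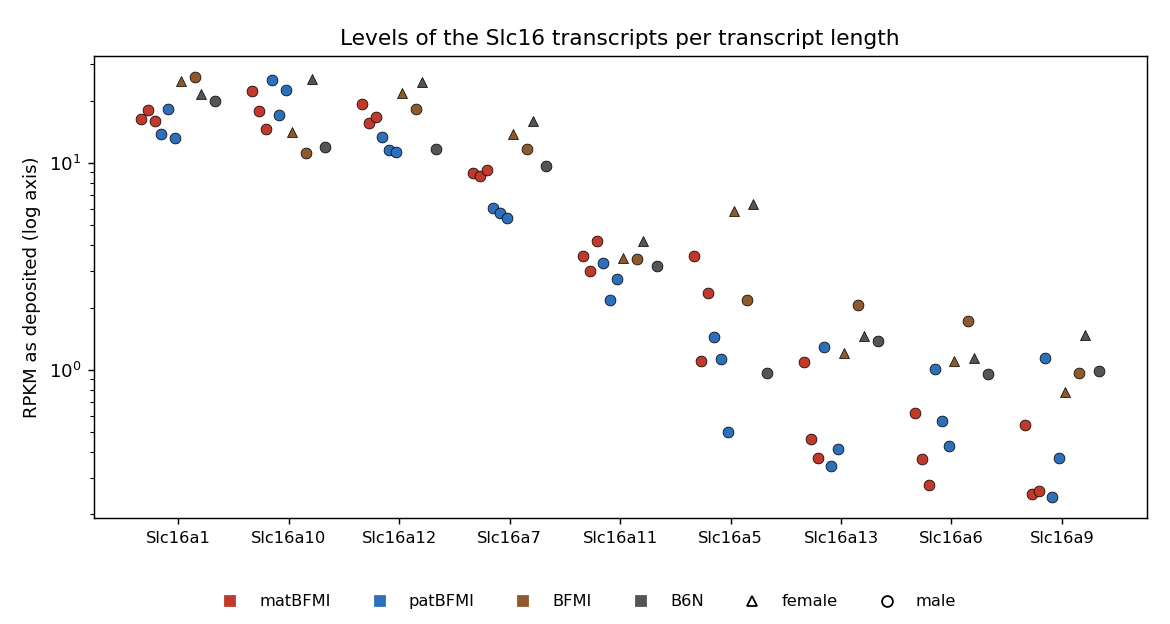
Deposited RPKM (log axis) of the 9 Slc16 members, ordered by their mean, with 1 point per library, coloured by group, circles for males and triangles for females. Slc16a1, Slc16a10, Slc16a12 and Slc16a7 lie highest in every library, and Slc16a5 of the 2 inbred females lies above that of all males.

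In the genome (GRCm38) the members lie on 4 chromosomes. Slc16a7 is on chromosome 10 at 125219270 to 125389465 on the minus strand, with Slc16a10 (40033532 to 40142258, minus) and Slc16a9 (70245100 to 70285968, plus) on the same chromosome. Chromosome 11 holds Slc16a5 (115462474 to 115474398, plus), Slc16a6 (109450855 to 109473598, minus), Slc16a11 (70212752 to 70216417, plus) and Slc16a13 (70216789 to 70221064, minus). The last pair are neighbours on opposite strands whose ends lie 371 bases apart. Slc16a1 is on chromosome 3 (104638668 to 104658462, plus) and Slc16a12 on chromosome 19 (34668403 to 34747289, minus). The exons of Slc16a6 share 1052 bases with Amz2 and 48 bases with Arsg on the other strand. The article names a 'union' mode of counting, and no source used here states whether reads were counted by strand. How reads in these shared bases entered the count of Slc16a6 is therefore not known. The closest match between transcripts of 2 members was Slc16a1 with Slc16a7, at 68.8% identity over 570 bases, so these 2 are not near-identical copies.

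The promoters of the 3 most abundant members are shown because these genes account for most of the Slc16 signal in every library. The sequences are those of RefSeq (GRCm38.p6), 300 bases that span the annotated start and lie mostly before it, 5′ to 3′ on the strand of the gene. Such a window was found for 5 of the 9 members (Slc16a1, Slc16a9, Slc16a10, Slc16a11 and Slc16a12). Capitals mark the E-box CACGTG, the core bound by factors such as USF and ChREBP, and the GC box GGGCGG, the core bound by Sp factors, both searched on both strands.
Slc16a1: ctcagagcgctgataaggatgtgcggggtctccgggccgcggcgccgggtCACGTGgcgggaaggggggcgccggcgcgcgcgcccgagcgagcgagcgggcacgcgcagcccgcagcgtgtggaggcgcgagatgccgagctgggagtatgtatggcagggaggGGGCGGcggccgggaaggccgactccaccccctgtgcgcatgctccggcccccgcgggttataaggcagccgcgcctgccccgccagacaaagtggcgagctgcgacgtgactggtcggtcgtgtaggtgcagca
Slc16a12: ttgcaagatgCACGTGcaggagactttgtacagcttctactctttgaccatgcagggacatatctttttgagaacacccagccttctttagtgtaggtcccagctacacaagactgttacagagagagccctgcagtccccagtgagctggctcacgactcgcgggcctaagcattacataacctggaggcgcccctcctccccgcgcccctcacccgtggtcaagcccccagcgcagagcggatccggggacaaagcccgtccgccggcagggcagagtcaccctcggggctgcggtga
Slc16a10: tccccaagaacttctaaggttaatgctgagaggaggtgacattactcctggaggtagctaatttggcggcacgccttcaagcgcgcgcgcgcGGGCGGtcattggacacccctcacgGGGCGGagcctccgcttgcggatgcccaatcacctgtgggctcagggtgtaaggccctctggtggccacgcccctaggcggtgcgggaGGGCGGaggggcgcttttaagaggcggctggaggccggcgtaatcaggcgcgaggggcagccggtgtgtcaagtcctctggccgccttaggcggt
An E-box was present in 2 of the 5 windows, in Slc16a1 from position -200 and in Slc16a12 from position -240 relative to the start, and 7.15% of the 32851 promoters of the table hold one. A GC box was found in Slc16a1, Slc16a9 and Slc16a10, against 35.7% of all promoters, and Slc16a9 and Slc16a10 held 3 each. The site TCAAGGTCA, bound by estrogen-related receptors, was in none of the 5 windows (0.423% of all promoters). The same held for the PPAR element, a direct repeat of AGGTCA with 1 base between the copies (0.0396%), and the sterol response element TCACNCCAC (1.24%). These matches describe letters in a short window and were not tested against expression. Slc16a7 had no such window, and the article lists a site of estrogen-related receptor b for it in a longer region around the start.

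Between the reciprocal crosses, Slc16a7 rose in matBFMI livers and was the only one of the 9 members past the threshold, an adjusted p of 0.05 over the 16797 genes tested with the quasi-likelihood test of edgeR. Of all genes tested, 0.143% passed it, and 0.0953% were higher in matBFMI. Slc16a7, a high-affinity carrier of pyruvate and lactate, had 35.0, 34.5 and 37.6 CPM in the 3 matBFMI livers, against 21.2, 24.5 and 22.0 CPM in the 3 patBFMI livers. The groups were widely apart, and the lowest matBFMI library exceeded the highest patBFMI library by more than the range within either group. The means were 35.7 ± 1.67 CPM in matBFMI and 22.6 ± 1.71 CPM in patBFMI (SD, n = 3 each). The log2 fold change was 0.65 (SE 0.0822, 95% interval 0.46 to 0.83) or 1.57-fold. The adjusted p was 0.0401 in edgeR, the 12th smallest p of the comparison. The call is close to the threshold. Leaving out 1 library gave an adjusted p of 0.0266 without patBFMI 2 and ended the call for each of the other 5, at 0.0797 without matBFMI 2, 0.0913 without matBFMI 1, 0.119 without patBFMI 1, 0.131 without patBFMI 3 and 0.148 without matBFMI 3, while the log2 fold change stayed between 0.61 and 0.70. The call was also lost with all 10 libraries in 1 fit (0.0645) and in limma on the RPKM (0.369 and 0.305 at pseudocounts of 1 and 0.1). Of 15 alternatives in all, 7 kept the call, among them DESeq2 (3.22e-06) and edgeR with relative log expression scaling (0.0391).

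Slc16a1, the closest relative of Slc16a7 among the members and the main lactate carrier of many tissues, showed no such separation. It had 73.7, 81.7 and 71.5 CPM in matBFMI, against 58.5, 85.7 and 57.9 CPM in patBFMI, so that patBFMI 2 was the highest of the 6 libraries. Its log2 fold change was 0.16 (95% interval -0.18 to 0.50, adjusted p = 0.781 in edgeR). Within each library the ratio of Slc16a7 to Slc16a1 counts was 0.475, 0.422 and 0.525 in matBFMI, against 0.363, 0.286 and 0.380 in patBFMI. The ratio needs no scaling between libraries, and it was higher in each matBFMI library than in any patBFMI library. The ratio of Slc16a7 to Slc16a12 counts overlapped, at 0.435, 0.535 and 0.542 in matBFMI, against 0.408, 0.494 and 0.488 in patBFMI.

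The neighbours Slc16a11 and Slc16a13, whose products carry pyruvate and lactate, lay above the patBFMI range in all 3 matBFMI livers, and neither passed the threshold. Slc16a11, a gene associated with type 2 diabetes in humans, had 8.71, 9.12 and 13.0 CPM in matBFMI, against 5.82, 7.47 and 8.32 CPM in patBFMI. Its log2 fold change was 0.50 (SE 0.177, adjusted p = 0.404 in edgeR). Slc16a13 was low, at 1.51 to 2.26 CPM in matBFMI and 1.36 to 1.39 CPM in patBFMI, with a log2 fold change of 0.37 (SE 0.203, adjusted p = 0.596 in edgeR). The difference for Slc16a13 was -0.015 on the log2(RPKM + 1) scale in limma.

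Slc16a12, a creatine transporter, had the next smallest p of the family. It had 80.4, 64.4 and 69.3 CPM in matBFMI, against 52.0, 49.6 and 45.2 CPM in patBFMI. The 2 groups did not overlap. The log2 fold change was 0.53 (SE 0.112, 95% interval 0.28 to 0.78), which ranked 132nd by p and did not pass (adjusted p = 0.141 in edgeR). DESeq2 gave an adjusted p of 0.00385 for it.

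Slc16a5, known for carrying drugs such as bumetanide, had the widest fold difference of the 9, with a wide spread. The matBFMI livers had 13.0, 5.23 and 11.0 CPM, against 2.95, 5.89 and 2.39 CPM in the patBFMI livers. The groups overlapped, since matBFMI 2 lay below patBFMI 2. The log2 fold change was 1.38 (SE 0.386, 95% interval 0.50 to 2.25, adjusted p = 0.269 in edgeR).

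The remaining members had negative estimates that did not pass. Slc16a10, a carrier of aromatic amino acids and thyroid hormones, had 125, 97.8 and 81.2 CPM in matBFMI, against 132, 97.2 and 119 CPM in patBFMI (log2 fold change -0.21, 95% interval -0.61 to 0.19). Slc16a6, a transporter that exports ketone bodies from the liver in zebrafish, had 2.06 to 2.47 CPM in matBFMI and 2.58 to 4.10 CPM in patBFMI, without overlap (log2 fold change -0.44, SE 0.199, adjusted p = 0.522 in edgeR). Slc16a9, a carnitine transporter in humans, had 1.28 to 1.55 CPM in matBFMI and 1.47 to 2.14 CPM in patBFMI (log2 fold change -0.35, SE 0.202, adjusted p = 0.615 in edgeR).

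Across the family, 6 members had a positive and 3 a negative log2 fold change, with a median of 0.37, against -0.0052 over all genes tested. An unadjusted p under 0.05 was reached by 4 members, Slc16a5, Slc16a7, Slc16a11 and Slc16a12, all higher in matBFMI, against 9.85% of all genes in either direction and 5.14% higher. The libraries of the 2 groups did not overlap for 5 members, 4 higher and 1 lower in matBFMI, where 15.3% of all genes did not overlap (8.25% higher, 7.07% lower). Beside these differences, all 11 Kupffer markers had a negative and all 5 muscle markers a positive log2 fold change. Of 10 hepatocyte markers, 6 had a negative one with an unadjusted p under 0.05 in edgeR. Pancreas markers summed to 16.5 to 19.2 CPM in matBFMI, against 22.5 to 27.9 CPM in patBFMI. Nearly all of that sum was Cela1, at 16.4 to 19.2 CPM in matBFMI and 22.1 to 27.9 CPM in patBFMI. It was the only 1 of the 5 pancreas markers with enough counts to be tested. None of these markers passed the threshold in edgeR, and their part in the differences of the members was not tested.

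**Figure D2:**
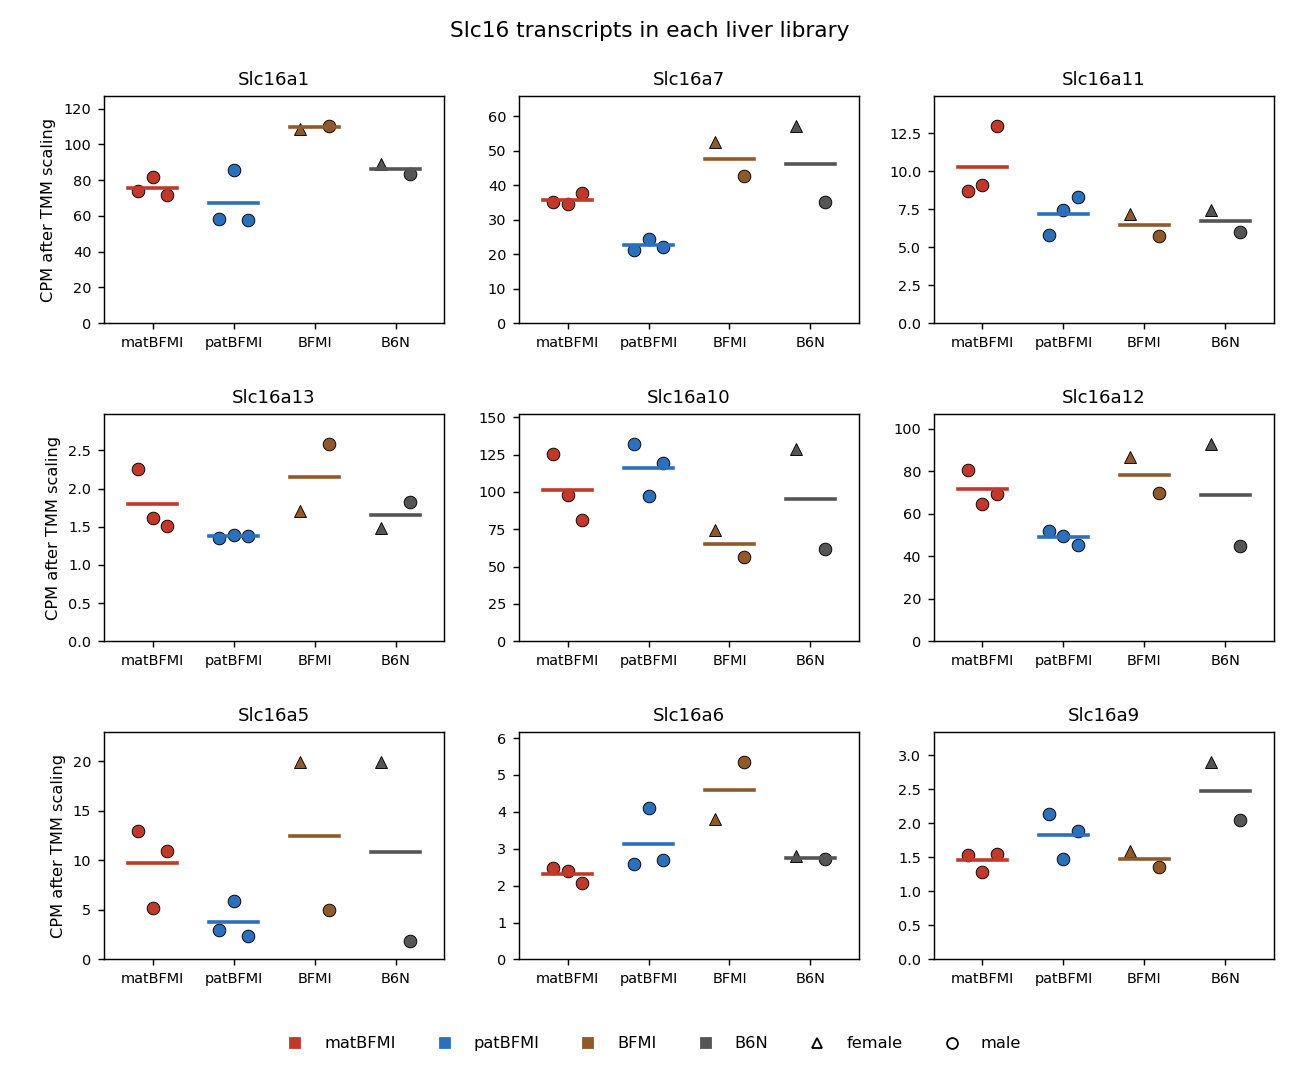
CPM after TMM scaling of each member in every library, by group, with circles for males, triangles for females and a line at the group mean (n = 3 for matBFMI and patBFMI, n = 2 for BFMI and B6N). Slc16a7 of matBFMI sits between 34.5 and 37.6 CPM, above patBFMI at 21.2 to 24.5 CPM, and Slc16a5 of the 2 females sits at 19.9 CPM, above every male.

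Of the genes around these transporters, none of the pathway lists held a gene past the threshold between the crosses in edgeR. An unadjusted p under 0.05 in edgeR was reached by 4 of 16 lactate and pyruvate enzymes and 2 of 5 ketone body enzymes. The same held for 2 of 8 carnitine genes, 2 of 5 creatine genes and 1 of 4 thyroid hormone genes. All were higher in matBFMI, against 9.85% of all genes in either direction and 5.14% higher. The ancillary glycoproteins Bsg, Emb and Nptn gave 0 of 3, with Emb at 0.484 ± 0.0838 CPM in matBFMI and 0.294 ± 0.173 CPM in patBFMI (SD, n = 3 each), and Nptn at 38.3 CPM in matBFMI and 36.2 CPM in patBFMI. The mitochondrial pyruvate carrier subunits Mpc1 and Mpc2 had log2 fold changes of 0.18 and 0.16. Of 16 lactate and pyruvate enzymes, 11 had a positive estimate. The pair with the smallest p was Pklr, the liver pyruvate kinase, at 228 ± 68.5 CPM in matBFMI and 115 ± 31.6 CPM in patBFMI (adjusted p = 0.221 in edgeR), and Pdk1, a kinase that inhibits pyruvate dehydrogenase, at 172 ± 22.9 CPM in matBFMI and 124 ± 11.7 CPM in patBFMI (adjusted p = 0.245). Bdh1, a dehydrogenase of ketone bodies, had a log2 fold change of 0.34 (SE 0.105).

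The substrate lists of the other members gave 0 calls as well. Of 8 carnitine genes tested all 8 had a positive estimate, with a median of 0.29, and Crat, carnitine acetyltransferase, came closest at 47.8 ± 6.57 CPM in matBFMI and 27.3 ± 3.93 CPM in patBFMI (adjusted p = 0.0871 in edgeR). Of 5 creatine genes, Ckm had the smallest p at 0.246 to 2.19 CPM in matBFMI and 0 to 0.0427 CPM in patBFMI, and this muscle creatine kinase is also one of the skeletal muscle markers. Gamt, which makes creatine, had a log2 fold change of 0.32 (SE 0.126). Thrsp, a thyroid hormone responsive gene, had 779 ± 154 CPM in matBFMI and 345 ± 179 CPM in patBFMI (adjusted p = 0.255 in edgeR), and Dio1, a deiodinase, had a log2 fold change of -0.48 (SE 0.229). Among aromatic amino acid genes, Tat had a log2 fold change of 0.35 (SE 0.192) and Hgd of 0.12 (SE 0.103). Slc16a3 had a log2 fold change of -0.15 and Slc16a4 of -0.10.

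The parental strains differed in 6.67% of the 19974 genes tested in the fit of all 10 libraries, which carries terms for group and sex, and in 0 of the 9 members. With DESeq2 the members called were also 0, and 2 members had an unadjusted p under 0.05 in edgeR, 1 higher and 1 lower in BFMI, against 18.3% of all genes (9.72% higher, 8.56% lower). Slc16a6 had 3.80 and 5.36 CPM in the BFMI female and male, against 2.81 and 2.72 CPM in the B6N female and male. Its log2 fold change was 0.72 (SE 0.242, adjusted p = 0.127 in edgeR), and without patBFMI 2, which enters through the shared spread, the adjusted p was 0.0451. Without the BFMI male the estimate was 0.47 (adjusted p = 0.565 in edgeR), and without the B6N male 0.44 (0.610). Slc16a9 had 1.59 and 1.36 CPM in the BFMI female and male, against 2.91 and 2.05 CPM in the B6N pair (log2 fold change -0.73, SE 0.221, adjusted p = 0.0909 in edgeR). Both BFMI libraries lay above both B6N libraries for Slc16a1 and Slc16a6 and below them for Slc16a9, where 43.8% of all genes did not overlap (20.8% higher, 23% lower).

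Slc16a1 had 109 and 111 CPM in the BFMI female and male, against 88.9 and 83.3 CPM in the B6N pair (log2 fold change 0.35, 95% interval -0.063 to 0.76). Slc16a7, the member called between the crosses, had 52.4 and 42.5 CPM in the BFMI female and male, against 57.2 and 35.2 CPM in the B6N pair, and its strain estimate was 0.072 (95% interval -0.21 to 0.35, adjusted p = 0.859 in edgeR). For Slc16a12, as for Slc16a7, the order of the strains was not the same in the females and the males, with 1 animal each. A test of this takes its spread from the F1 males alone. For Slc16a12 the BFMI female had 86.5 CPM, against 92.9 CPM in the B6N female, and the BFMI male had 69.5 CPM, against 44.6 CPM in the B6N male. The strain estimate was 0.27 (SE 0.177), and the test of the difference between the sexes gave -0.74 on the log2 scale, female minus male (SE 0.269, adjusted p = 0.550 in edgeR). For Slc16a7 the same test gave -0.40 (SE 0.215, adjusted p = 0.694 in edgeR). Slc16a12 was the only member with an unadjusted p under 0.05 in that test, where 7.87% of all genes had one and 0.03% passed the threshold. Of the other members, Slc16a5 was estimated at 0.65 (95% interval -0.46 to 1.76), Slc16a13 at 0.36, Slc16a10 at -0.46 and Slc16a11 at -0.060, with adjusted p of 0.336 to 0.936 in edgeR, and without the B6N male the estimate for Slc16a5 was -0.00157. The median over the members was 0.27, against -0.041 over all genes.

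Around the members, the ketone body enzymes Acat1 (log2 fold change 0.65, SE 0.138) and Bdh1 (0.54, SE 0.139) rose in BFMI, past the threshold in edgeR. Of 16 lactate and pyruvate enzymes, 2 rose, Pdk2 at 29.0 ± 5.68 CPM in BFMI and 17.4 ± 0.503 CPM in B6N (SD, n = 2 each), and the D-lactate dehydrogenase Ldhd at 109 ± 22.4 CPM in BFMI and 72.9 ± 15.9 CPM in B6N. Dio1, which acts on the thyroid hormones that Slc16a10 carries, fell by 1.94 on the log2 scale (SE 0.272). Bsg had 205 ± 11.2 CPM in BFMI and 152 ± 19.4 CPM in B6N (log2 fold change 0.44, adjusted p = 0.150 in edgeR). Several marker lists moved with the strain. Of 11 Kupffer markers 10 had a negative estimate and 5 fell in BFMI, as did 4 of 5 pancreas markers and 1 of 8 endothelial markers, while 4 of 6 erythroid markers rose. The pancreas markers summed to 16.4 to 28.5 CPM in BFMI, against 26.9 to 101 CPM in B6N, and the erythroid markers to 733 to 918 CPM in BFMI, against 225 to 394 CPM in B6N. Their part in these differences was not tested.

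Between the sexes of the inbred strains, 0 of the 9 members passed the threshold, which 0.556% of all genes did, while 4 had an unadjusted p under 0.05 in edgeR, all higher in females, against 7.8% of all genes (3.83% higher). With DESeq2 these 4 members passed. Slc16a5 had the widest difference, with 19.9 CPM in the BFMI female and 19.9 CPM in the B6N female, against 5.03 CPM in the BFMI male and 1.83 CPM in the B6N male. The fitted log2 fold change was 2.65 (SE 0.517, 95% interval 1.50 to 3.80) or 6.29-fold, and the adjusted p was 0.0623 in edgeR. It passed when matBFMI 2 (0.0418), patBFMI 1 (0.0357) or patBFMI 2 (0.0383) was left out, and DESeq2 gave 0.00402. Without the B6N male the estimate was 1.987 (adjusted p = 0.454 in edgeR), and without the B6N female 1.991 (0.443). Limma on the RPKM gave 1.50 and 1.988 at pseudocounts of 1 and 0.1 (adjusted p = 0.357 and 0.630).

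Slc16a12 had 86.5 and 92.9 CPM in the BFMI and B6N females, against 69.5 and 44.6 CPM in the males (log2 fold change 0.68, SE 0.178, adjusted p = 0.181 in edgeR). Slc16a7 had 52.4 and 57.2 CPM in the females, against 42.5 and 35.2 CPM in the males (0.50, SE 0.125, adjusted p = 0.158). Slc16a10 had 74.4 and 129 CPM in the females, against 56.5 and 61.8 CPM in the males (0.73, SE 0.229, adjusted p = 0.317). The B6N female was the highest inbred library for Slc16a7, Slc16a10 and Slc16a12, and this library also had the most pancreas marker RNA, 101 CPM in sum, against 28.5 CPM in the BFMI female. Of the 5 pancreas markers 2 rose in females, and hepatocyte markers summed to 106608 to 108650 CPM in females, against 83743 to 93512 CPM in males. Of 6 erythroid markers 4 had a negative estimate with an unadjusted p under 0.05, of which Alas2 fell by 1.67 on the log2 scale in females, past the threshold in edgeR. The part of these markers in the differences of the members was not tested. Both females lay above both males for Slc16a5, Slc16a7, Slc16a10, Slc16a11 and Slc16a12 and below them for Slc16a13, where 25.1% of all genes did not overlap (13.8% higher, 11.3% lower).

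Slc16a1 was nearly level, at 109 and 88.9 CPM in females and 111 and 83.3 CPM in males (log2 fold change 0.033, 95% interval -0.38 to 0.44). Slc16a6, Slc16a9, Slc16a11 and Slc16a13 had estimates between -0.46 and 0.37 with adjusted p of 0.711 to 0.977 in edgeR. The median over the members was 0.37, against 0.028 over all genes. Among the other carriers, Mpc2 had 147 ± 3.09 CPM in females and 107 ± 11.8 CPM in males (SD, n = 2 each, adjusted p = 0.185 in edgeR) and Mpc1 had 23.4 ± 0.0607 CPM in females and 18.3 ± 2.25 CPM in males. All 6 aromatic amino acid genes had a positive estimate, with Hpd closest to the threshold (log2 fold change 0.59, SE 0.112, adjusted p = 0.0573 in edgeR).

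The F1 males were also set against the mid-parent level, the mean of the 2 strains at the male level of the fit. Of all genes, 2.05% passed the threshold, and of the members 0 did in edgeR, while 6 had an unadjusted p under 0.05, 2 higher and 4 lower, against 16.6% of all genes (9.02% higher, 7.61% lower). DESeq2 called 2 of them, Slc16a7 and Slc16a10. Slc16a10 had 81.2 to 132 CPM in the 6 F1 males, against 56.5 and 61.8 CPM in the BFMI and B6N males, so that each F1 male lay above both inbred males. The log2 fold change was 0.87 (SE 0.195, 95% interval 0.43 to 1.30, adjusted p = 0.0537 in edgeR). Slc16a7 had 21.2 to 37.6 CPM in the F1 males, against 42.5 and 35.2 CPM in the BFMI and B6N males, with patBFMI the lowest of all groups (-0.45, SE 0.0999, adjusted p = 0.0524 in edgeR). Both lay just above the threshold. Without patBFMI 2, the BFMI female or the B6N female, both passed, at 0.0398, 0.0330 and 0.0326 for Slc16a7 and at 0.0442, 0.0435 and 0.0437 for Slc16a10, and Slc16a10 passed without patBFMI 1 as well (0.0386). Leaving out an inbred male moved both further from the threshold. Without the BFMI male Slc16a7 was at -0.27 (adjusted p = 0.678 in edgeR) and Slc16a10 at 1.18 (0.231), and without the B6N male Slc16a7 was at -0.65 (0.0687) and Slc16a10 at 0.55 (0.349).

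The counts of Slc16a7 relative to Slc16a10 ordered the F1 groups without any scaling between libraries. The ratio was 0.279, 0.352 and 0.463 in the matBFMI livers and 0.160, 0.252 and 0.185 in the patBFMI livers, against 0.704 and 0.753 in the BFMI female and male and 0.445 and 0.569 in the B6N female and male. All patBFMI libraries lay below all matBFMI libraries, and the B6N female overlapped with matBFMI 3.

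Slc16a1 had 57.9 to 85.7 CPM in the F1 males, against 111 and 83.3 CPM in the BFMI and B6N males (log2 fold change -0.43, SE 0.147, adjusted p = 0.185 in edgeR), and the adjusted p was 0.0290 without patBFMI 2 and between 0.145 and 0.769 without any other single library. Slc16a11 was estimated at 0.56, Slc16a6 at -0.52 and Slc16a13 at -0.48, with adjusted p of 0.162 to 0.219 in edgeR. Slc16a12 and Slc16a9 were near the mid-parent level, at 0.072 (95% interval -0.25 to 0.39) and -0.035 (95% interval -0.44 to 0.37). Slc16a5 was estimated at 0.89 with a wide interval (-0.070 to 1.85). In limma on the RPKM, Slc16a11 and Slc16a12 turned negative, as did Slc16a5 at a pseudocount of 0.1. The median over the members was -0.035, against 0.0058 over all genes, and for none of them did the 6 F1 libraries and the 4 inbred libraries separate (5.83% of all genes did). Hpd, of aromatic amino acid breakdown, and Thrsp passed the threshold (log2 fold changes 0.46 and 1.75). All 11 Kupffer markers had a negative estimate in the F1 males, and 4 of them passed the threshold. Of 5 pancreas markers 3 fell in the F1 males, as did the cholangiocyte marker Spp1, and 1 of 10 hepatocyte markers rose. The 6 cholangiocyte markers summed to 20.7 to 25.3 CPM in the F1 males, against 28.1 to 55.2 CPM in the inbred libraries. Most of this sum was Spp1, at 17.4 to 22.0 CPM in the F1 males and 24.3 to 49.9 CPM in the inbred libraries. The part of these markers in the differences of the members was not tested, and diet, lane and cross cannot be told apart from generation here.

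**Figure D3:**
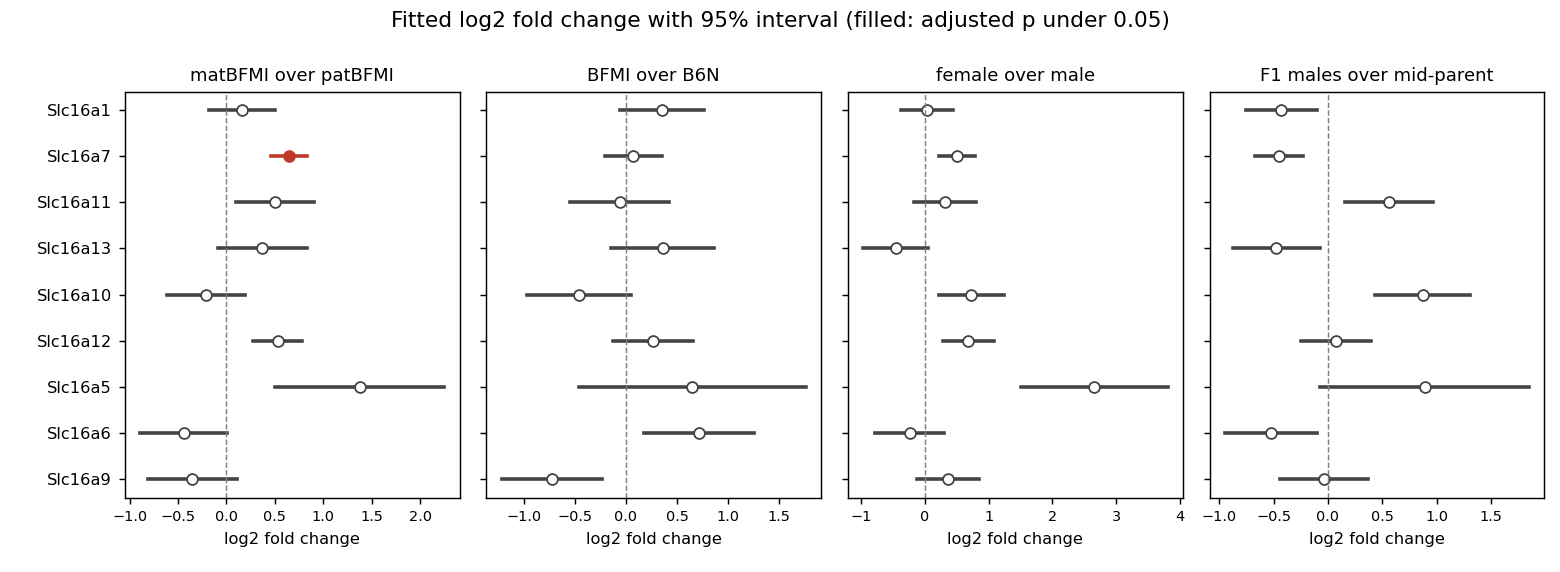
Fitted log2 fold change of each member in 4 comparisons, with 95% intervals as lines and filled points where the adjusted p in edgeR was under 0.05. The horizontal axes differ in range, and only Slc16a7 in matBFMI over patBFMI, at 0.65, is filled.

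Slc16a5, Slc16a7 and Slc16a12 shared much of their pattern over the libraries. Over the 10 libraries, which share 4 groups and 2 sexes, Pearson's r of log2(CPM + 1) was 0.93 between Slc16a5 and Slc16a12, 0.83 between Slc16a7 and Slc16a12 and 0.73 between Slc16a5 and Slc16a7. These are the 3 genes of the family that were high in both females and had higher means in matBFMI than in patBFMI with an unadjusted p under 0.05 in both comparisons. The B6N male was the exception for Slc16a7, with 35.2 CPM, while it was the lowest of all libraries for Slc16a12 (44.6 CPM) and Slc16a5 (1.83 CPM). Slc16a1 ran with Slc16a7 (r = 0.76) and against Slc16a10 (r = -0.66). The neighbours Slc16a11 and Slc16a13 did not run together (r = -0.25).

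**Figure D4:**
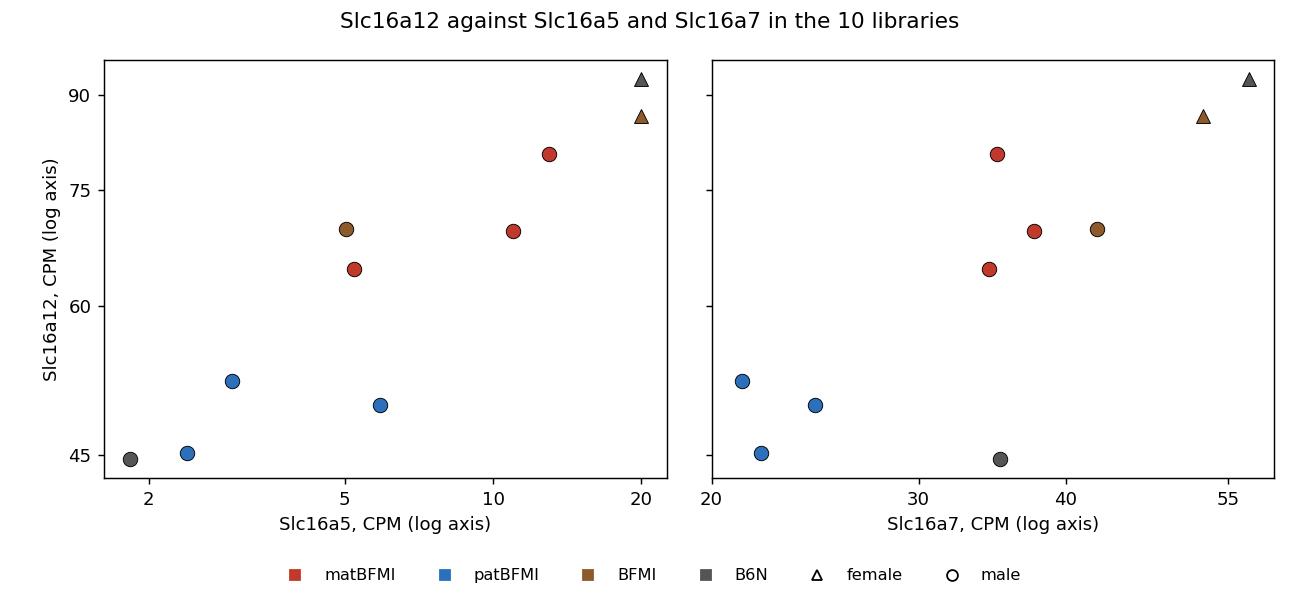
CPM of Slc16a12 against Slc16a5 (left) and Slc16a7 (right) in the 10 libraries, log axes, coloured by group, circles for males and triangles for females. The 2 females lie at the upper right in both panels and the 3 patBFMI males at the lower left of the Slc16a7 panel, while patBFMI 2 exceeds matBFMI 2 and the BFMI male in Slc16a5, and the B6N male is low in Slc16a12 at 44.6 CPM and Slc16a5 at 1.83 CPM but not in Slc16a7 at 35.2 CPM.

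Among 15598 protein-coding genes compared over the same 10 libraries, the genes most like Slc16a7 were Impg2 (r = 0.962, 3.84 to 9.21 CPM), Pced1b (r = 0.939, 0.256 to 0.935 CPM) and Eci3 (r = 0.937, 1.06 to 3.09 CPM). Those most like Slc16a12 were Uhrf1bp1l (r = 0.945, 37.4 to 56.3 CPM), Umad1 (r = 0.944, 11.5 to 15.1 CPM) and Ttc25 (r = 0.943, 0.185 to 0.737 CPM). With so many genes compared over 10 libraries such values describe these libraries and carry no test.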

How the data were processed

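Liver RNA-seq of 10 mice was used. The authors trimmed reads with Trimmomatic 0.32, aligned them to mm10 (GRCm38), removed duplicates with Picard 1.99 and counted reads per Ensembl gene; for alignment the submitters' processing notes name TopHat2 2.10 and Bowtie2 2.2.6, whereas the paper names BWA. They deposited raw counts and, beside them, RPKM values computed after quantile normalization. Of the deposited columns, 3 with no sample record were not used. The protocol in the labels describes ribosomal RNA depletion, although their molecule field says polyA RNA.

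Symbols and coordinates were taken from GENCODE M21, which matched 40254 of 41388 identifiers. Raw counts were scaled by TMM and tested with the quasi-likelihood test of edgeR 4.0.16 (R 4.3.3), with Benjamini-Hochberg adjustment over all genes tested and a threshold of 0.05. The reciprocal crosses were compared in the 6 F1 libraries on genes that reached 10 counts in 3 or more libraries. The strain, sex and mid-parent comparisons used all 10 libraries, terms for group and sex, and genes that reached 10 counts in 2 or more. With 1 animal per strain and sex, their spread comes mostly from the F1 males. The strain by sex test used the same libraries and genes, with a separate term for each F1 group and for each sex of each inbred strain. Its spread comes from the F1 males alone. The biological coefficient of variation was 15.9% in the F1 fit, 17.7% in the fit of group and sex and 16.8% in the strain by sex fit. The standard error is the log2 fold change divided by the square root of F. CPM are counts scaled to library size after TMM scaling over the 10 libraries, and the likeness between genes used log2(CPM + 1). Levels between genes used the RPKM.

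Alternatives were relative log expression or library size scaling, DESeq2 1.42.0, no filter or a filter at 1 CPM, limma 3.58.1 on log2 RPKM with pseudocounts of 1 and 0.1, the offspring number as a block, all 10 libraries in 1 fit, and leaving out each library. Fits were tested on simulated data. Replicates were compared pairwise and none were duplicates. Transcripts were compared with BLAST 2.17.0 and promoters searched in RefSeq windows. Figures were drawn with matplotlib 3.10.9 in Python 3.11.15. All members were named in every comparison. Of the pathway lists, genes past the threshold were named, and otherwise the 2 with the smallest p. Some genes of these lists are not reported here. The members and lists were chosen with earlier results of these data known.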

Additional observations from a re-analysis of the deposited data

How the results depend on the processing

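For the F1 comparison, 121 of 135 member estimates kept their sign and their side of the threshold over all alternatives. The count of genes called was 24, against 57 with library size scaling, 305 with DESeq2, 696 with no filter, 15 with a CPM filter, 2 with limma at either pseudocount, 12 with all 10 libraries in the fit, and 7 to 63 when a library was left out. Members called were 1, against 2 with DESeq2 and 4 with no filter, 0 with limma at either pseudocount and with all 10 libraries, and 0 to 1 when a library was left out. Slc16a7 had an adjusted p of 0.369 and 0.305 in limma and 0.0645 with all 10 libraries.

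Whether the offspring numbers pair the libraries cannot be settled with 3 libraries per group. Same-numbered libraries had correlations of 0.438, 0.0389 and 0.249 in their deviations from the group means. Libraries with different numbers had correlations from -0.449 to 0.2735. Of the matBFMI libraries, 1 and 3 correlated best with the patBFMI library of the same number, and matBFMI 2 with patBFMI 3. With the replicate block 175 genes and 2 members were called, Slc16a12 at an adjusted p of 0.0478. No other comparison has numbered pairs.

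For BFMI over B6N, 1332 genes were called, against 364 and 320 with limma at pseudocounts 1 and 0.1 and 536 to 1523 when a library was left out. Members called were 0, against 2 with no filter and 0 to 1 when a library was left out. For female over male, 111 genes were called, against 384 with DESeq2, 582 with no filter, 40 and 34 with limma and 38 to 155 when a library was left out, and 0 members, against 4 with DESeq2, 3 with no filter and 0 to 1 when a library was left out. For F1 males over mid-parent, 410 genes were called, against 871 with DESeq2, 1410 with no filter, 264 and 42 with limma and 13 to 937 when a library was left out, and 0 members, against 1 with relative log expression scaling, 2 with DESeq2, 4 with no filter, 1 with a CPM filter and 0 to 3 when a library was left out. The strain by sex test called 6 genes, against 10 with library size scaling, 128 with DESeq2, 399 with no filter, 0 and 1 with limma and 3 to 22 when an F1 library was left out. It could not be fitted without an inbred library.

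Some estimates turned sign. With no filter they were Slc16a11 in the strain comparison (0.028) and Slc16a1 between the sexes (-0.042). In limma, Slc16a13 in the F1 comparison was at -0.015 (pseudocount 1), and in F1 males over mid-parent Slc16a5 was at -0.040 (pseudocount 0.1), Slc16a11 at -0.067 and -0.092 and Slc16a12 at -0.0196 and -0.0203, where limma moved the median of all genes to -0.28 and -0.67. When a library was left out, the strain estimate ranged from -0.00157 to 1.46 for Slc16a5, from -0.13 to 0.27 for Slc16a7 and from -0.11 to 0.64 for Slc16a12, the sex estimate from -0.027 to 0.094 for Slc16a1 and from -0.49 to 0.047 for Slc16a6, and the mid-parent estimate from -0.17 to 0.077 for Slc16a9 and from -0.29 to 0.43 for Slc16a12. The causes were not tested. With 2 libraries per strain, 1 of each sex, and low counts for Slc16a6, Slc16a9 and Slc16a13, the intervals of these estimates are wide, and a difference within them was not detectable.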
